A study of Mus musculus with 6 samples.

Results

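Scavenger receptors are surface or lysosomal membrane proteins that bind modified lipoproteins, microbial products and dying cells. The set described here holds 10 genes, Msr1, Marco, Cd36, Scarb1, Scarb2, Scarf1, Olr1, Cd68, Stab2 and Cd14, and its members were the non-control array probes that carry one of these gene names. These were 15 of 55681 non-control probes, and after a filter on dim probes 14 of 28273 probes and all 10 of 20250 genes were kept. The samples were 3 c-Maf KO and 3 WT cultures of macrophages that the labels call polarized and M2-like. They were grown from cells of mice that had been reconstituted with fetal liver cells of either genotype. The medium held 10% FBS, penicillin-streptomycin and 10 ng/ml M-CSF, the growth factor that supports macrophage differentiation. M-CSF was added daily from day 4, and no other cytokine is named for either group. Expression was measured with 1-colour Agilent arrays.

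The labels give the tissue as liver, while the culture protocol names fetal liver and bone marrow cells. They give neither the kind of Maf deletion, nor the age or strain of the mice, nor whether the replicates of a group came from separate mice. The p-values below thus rest on the variation among these samples alone, and that variation may be technical. A chimeric mouse keeps cells of its host, and their share in the cultures is not given.

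Class A receptors such as the products of Msr1 and Marco bind polyanionic ligands through collagen-like or cysteine-rich domains. Class B receptors, encoded by Cd36, Scarb1 and Scarb2, have a pair of membrane-spanning segments and handle lipids or lysosomal enzymes. In macrophages, uptake of modified low-density lipoprotein through such receptors loads the cells with cholesterol, and efflux to lipoproteins unloads it. c-Maf, the product of Maf, is a basic leucine zipper transcription factor of macrophages and T helper cells, and the comparison addresses what it controls in macrophages.

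Maf itself had log2 ratios at -2.22, -2.36 and -1.92 for the c-Maf KO samples, against 1.92, 1.98 and 2.03 in the WT samples. Here and below, the log2 ratio of a sample is taken from the authors' value table and is relative to the median of the same probe over the 6 samples. The 3 c-Maf KO samples were all far below the 3 WT samples, in the direction that the genotype labels give. Maf fell by 4.14 on the log2 scale in c-Maf KO (SE 0.12, limma adjusted p = 0.000555 over all genes). In the 5 arrays with scanner files, which leave out c-Maf KO replicate 1, it fell by 4.12 (SE 0.15, limma adjusted p = 0.0107). That second call was lost without any 1 of the WT replicates, with limma adjusted p between 0.0978 and 0.159. The difference in these fits was -4.15 to -4.10.

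None of the 10 scavenger receptor genes passed limma's test at an adjusted p of 0.05, in the value table or in the 5 arrays. The background was 0.0346% of 20250 genes in either source, which is 7 genes. At an unadjusted p under 0.05, 2 of the 10 genes passed in both sources, Olr1 and Cd14, where 12.6% of all genes did so in the value table and 11.0% in the 5 arrays. The c-Maf KO minus WT difference was positive for 6 genes and negative for 4 in the value table, where 50.6% of all genes were positive. Its median was 0.038, against 0.0017 over all genes, and its median size was 0.133, against 0.0981. In the 5 arrays 5 genes were positive and 5 negative, where 47.0% of all genes were positive. There the median was -0.00056, against -0.011 over all genes, and the median size was 0.109, against 0.0975. Of the 10 genes, 4 had c-Maf KO and WT ratios in the value table that did not overlap, where 20.0% of all genes had none. Olr1 and Scarb2 lay higher in c-Maf KO, where the background was 11.1%, and Cd14 and Marco lay lower, where it was 8.87%. In the 5 arrays 4 genes had groups that did not overlap, Olr1 higher and Marco, Cd68 and Cd14 lower in c-Maf KO, where 30.1% of all genes had none. In bulk samples such as these, fewer cells of a type and less RNA per cell cannot be told apart.

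**Figure D1:**
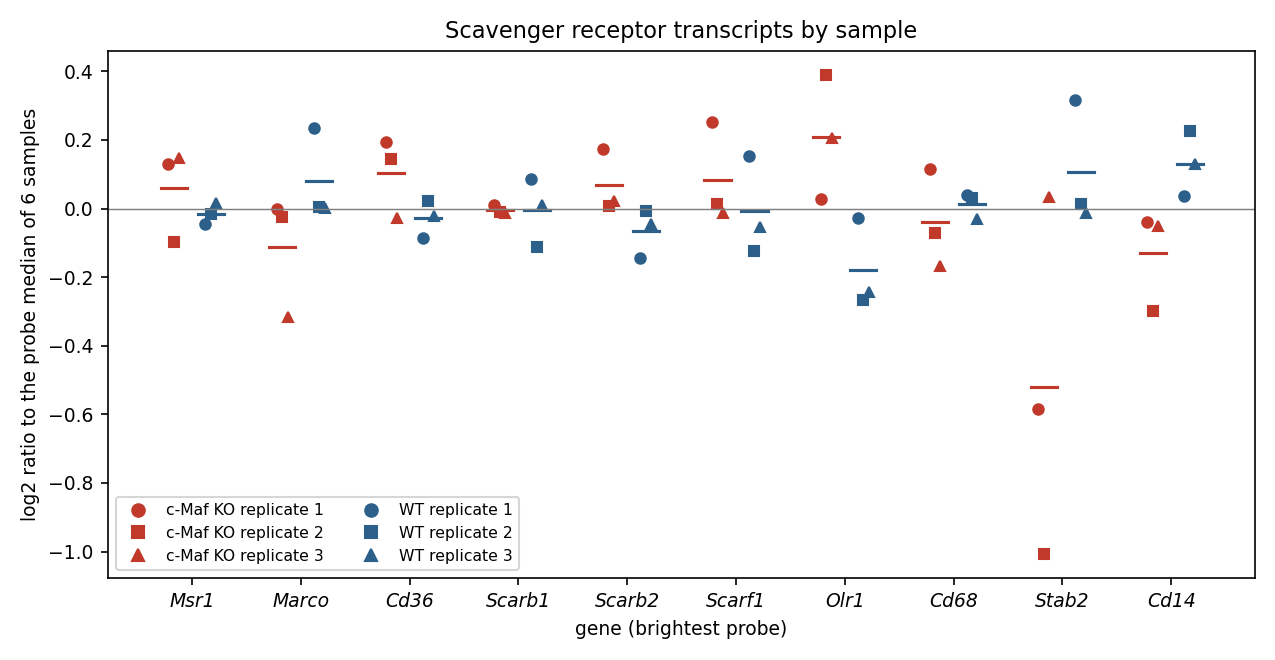
Log2 ratio to the probe's median over the 6 samples (vertical axis) for each of the 10 genes (horizontal axis), from the authors' value table. Red symbols are c-Maf KO samples and blue symbols WT samples, with 1 symbol shape per replicate number and a bar at each group's mean; Stab2 has the widest spread, from -1.01 in c-Maf KO replicate 2 to 0.32 in WT replicate 1.

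The lectin-like receptor encoded by Olr1, also called LOX-1, binds oxidized low-density lipoprotein and is well known from endothelium. Its probe (chromosome 6, 129435316 to 129435375, minus strand, mm9) had log2 ratios at 0.03, 0.39 and 0.20 for c-Maf KO replicates 1 to 3, against -0.03, -0.27 and -0.24 in WT replicates 1 to 3. All c-Maf KO samples lay above all WT samples, but c-Maf KO replicate 1 and WT replicate 1 were only narrowly apart. The difference was 0.39 on the log2 scale (SE 0.12, 95% interval 0.10 to 0.67, limma unadjusted p = 0.0157, adjusted p = 0.283), or 1.31-fold (1.07 to 1.59). In the 5 arrays it was 0.48 (SE 0.11, 0.19 to 0.76, limma adjusted p = 0.328). The signal divided by the array's 75th percentile was 0.404 and 0.360 in c-Maf KO replicates 2 and 3, against 0.306, 0.260 and 0.260 in WT replicates 1 to 3. The probe was well above background on all 5 arrays. Leaving out each replicate in turn gave differences between 0.30 and 0.48 in the value table. With normexp background correction the difference on the 5 arrays was 0.28.

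The stretch of 250 bases before the transcription start of Olr1 is shown because Olr1 had the lowest unadjusted p of the set in both sources. Cd68 is the other member whose stretch holds the same motif. Of the 10 members, 6 were found in RefSeq's table of promoters (GRCm38.p6): Marco, Cd36, Scarb2, Olr1, Stab2 and Cd68. The letters TGANTCA, the core of an AP-1 site that also lies within the long recognition element of large Maf proteins, were searched on both strands. So were the letters TGCTGAC, which begin that long element and also its variant with a cyclic AMP response element core. The first motif reads alike on either strand, and the letters TGAC can belong to both motifs. Capitals mark TGANTCA, and each sequence runs 5′ to 3′ in the direction of the gene.
Olr1, chr6:129507166-129507415, minus strand, GRCm38.p6: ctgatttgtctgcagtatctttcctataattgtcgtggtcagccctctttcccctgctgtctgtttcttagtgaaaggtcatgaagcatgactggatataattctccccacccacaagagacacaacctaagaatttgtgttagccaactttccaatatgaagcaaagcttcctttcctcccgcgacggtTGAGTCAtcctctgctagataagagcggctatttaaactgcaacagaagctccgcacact
Cd68, chr11:69666171-69666420, minus strand, GRCm38.p6: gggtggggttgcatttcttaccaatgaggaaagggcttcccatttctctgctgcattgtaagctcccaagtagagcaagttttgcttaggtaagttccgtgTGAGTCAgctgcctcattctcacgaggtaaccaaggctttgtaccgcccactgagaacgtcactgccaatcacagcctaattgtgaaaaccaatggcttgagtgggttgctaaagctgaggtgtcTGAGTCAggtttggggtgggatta
The match in Olr1 lies 60 to 54 bases before the start, and the matches in Cd68 lie 149 to 143 and 24 to 18 bases before it. TGANTCA was found in 2 of the 6 member stretches and in 6.75% of 32851 stretches of the same length in the table. TGCTGAC was found in 0 of the 6 and in 3.81% of all. A match says only that these letters are present, and binding was not measured.

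Cd14 encodes the co-receptor that hands bacterial lipopolysaccharide to Toll-like receptor 4. Its log2 ratios were -0.04, -0.30 and -0.05 in c-Maf KO replicates 1 to 3, against 0.04, 0.23 and 0.13 in WT replicates 1 to 3. All c-Maf KO samples lay below all WT samples, with c-Maf KO replicate 2 lowest and WT replicate 2 highest. The difference was -0.26 (SE 0.096, 95% interval -0.49 to -0.03, limma unadjusted p = 0.0352, adjusted p = 0.360), so that Cd14 was 1.20-fold higher in WT (1.02 to 1.41). In the 5 arrays it was -0.31 (SE 0.11, -0.59 to -0.02, limma adjusted p = 0.432). The scaled signal was 4.03 and 4.85 in c-Maf KO replicates 2 and 3, against 5.15, 5.87 and 5.41 in WT replicates 1 to 3. Leaving out each replicate in turn gave -0.31 to -0.17 in the value table, and on the 5 arrays the difference was -0.17 without c-Maf KO replicate 2. The order of the 6 samples by Cd14 was the reverse of their order by Olr1 (Pearson's r = -0.96, Spearman's rho = -1, n = 6). Both genes had groups that did not overlap, in opposite directions, so part of this negative relation follows from the genotype difference itself. All these points share the same RNA samples, and the relation is given as a description chosen from 45 gene pairs after their values were seen.

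**Figure D2:**
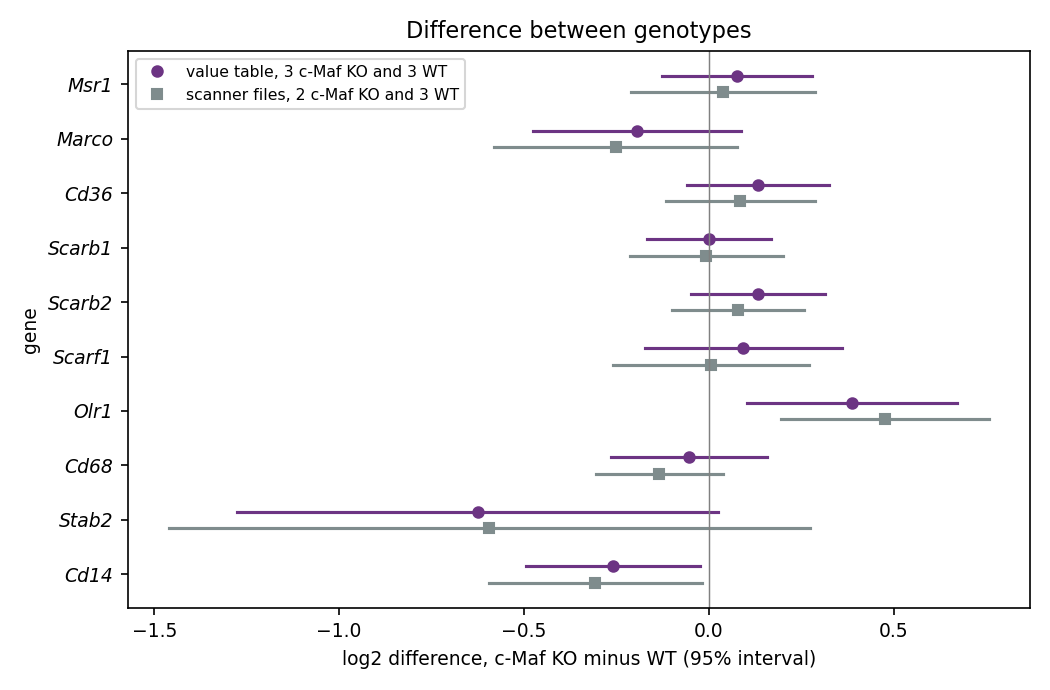
Log2 difference, c-Maf KO minus WT (horizontal axis), with its 95% interval from limma, for each of the 10 genes (vertical axis). Purple circles are the value table with 3 samples a group and grey squares the scanner files with 2 c-Maf KO and 3 WT arrays; the intervals of Olr1 and Cd14 leave out 0 in both sources before adjustment, and those of the other 8 genes include it.

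Stab2 encodes stabilin-2, the clearance receptor for hyaluronan of liver and spleen sinusoidal endothelium. Its brightest probe (chromosome 10, 86303982 to 86304041, minus strand, mm9) had log2 ratios at -0.59, -1.01 and 0.03 for c-Maf KO replicates 1 to 3, against 0.32, 0.01 and -0.01 in WT replicates 1 to 3. c-Maf KO replicates 1 and 2 lay below all WT samples, while the third c-Maf KO replicate was inside the range of WT. The difference of -0.63 was the largest of the 10 in size but did not pass the test (SE 0.27, 95% interval -1.28 to 0.02, limma unadjusted p = 0.0567, adjusted p = 0.409). The SD over samples was 0.52 in c-Maf KO and 0.18 in WT, where the median over all genes was 0.11 in c-Maf KO and 0.095 in WT. Without c-Maf KO replicate 3 the difference in the value table was -0.90 (limma adjusted p = 0.210), and without c-Maf KO replicate 2 it was -0.38. In the 5 arrays it was -0.59 (SE 0.33, limma adjusted p = 0.586), where leaving out c-Maf KO replicate 3 gave -1.12 and leaving out c-Maf KO replicate 2 gave -0.06.

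The other Stab2 probes gave little to set beside it. The probe at 86381487 to 86381546 was well above background on WT replicate 1 and c-Maf KO replicate 2 only, and its difference was -0.05 in the value table and 0.31 in the 5 arrays. The probe at 86455257 to 86455316 was not well above background on any of the 5 arrays and was not tested. The scaled signal of the brightest probe was 0.324 and 0.675 in c-Maf KO replicates 2 and 3, against 0.821, 0.666 and 0.644 in WT replicates 1 to 3. Of 8 endothelial markers, Cdh5, Lyve1, Tek, Clec4g and Emcn were well above background on 0 of 5 arrays, and only Pecam1, Kdr and Vwf were kept. Their summed scaled signal was 33.9 to 38.7 in c-Maf KO and 36.0 to 41.7 in WT. Among 4322 genes with a range of at least 0.5 times that of Stab2 (1.32), Cables1 (Pearson's r = 0.976), Asb3 (0.975) and a probe for an intergenic region on chromosome 19 (0.974) had the most similar ratios over the 6 samples. Of the 4322 genes, 16 were above 0.95, and all rest on the same 6 samples.

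**Figure D3:**
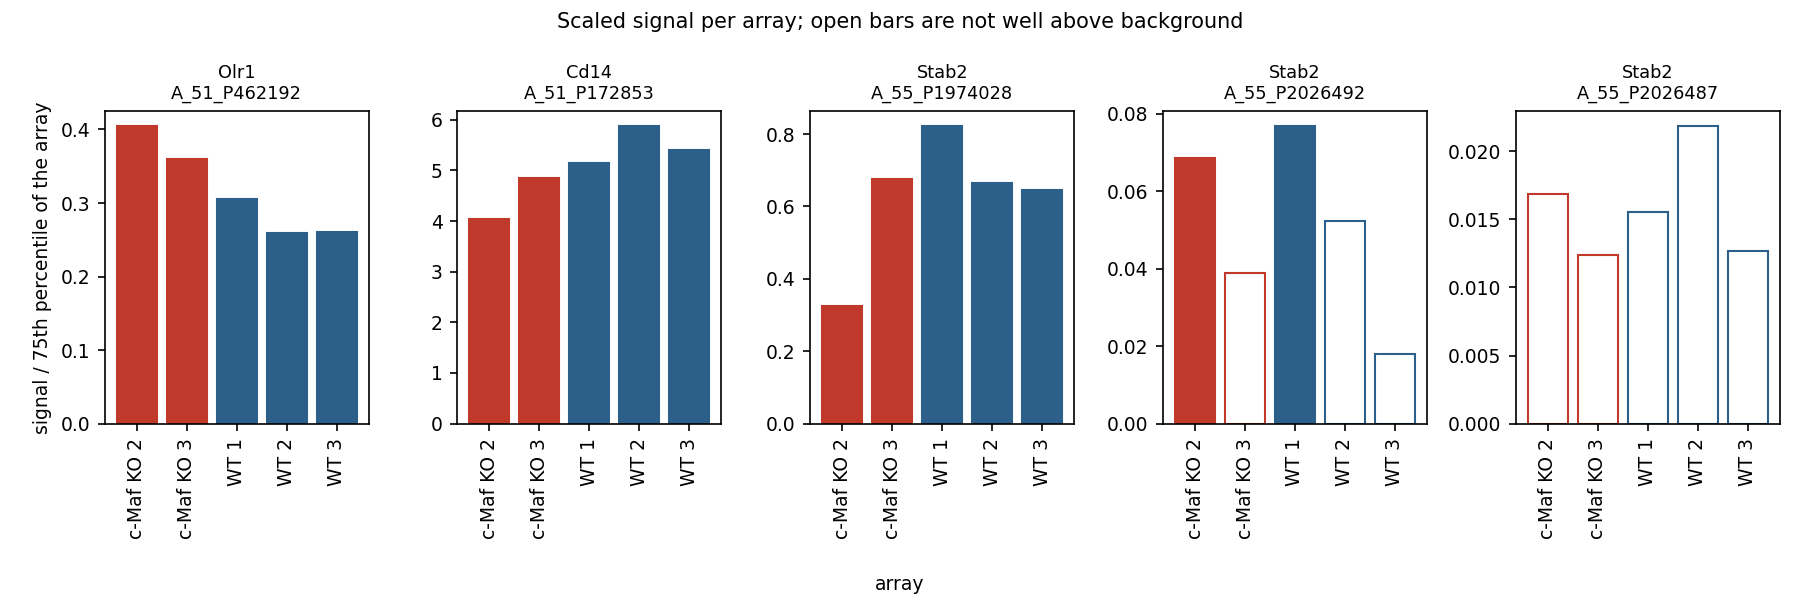
Scaled signal, the processed intensity divided by the 75th percentile of the array (vertical axis, starting at 0, a separate scale per panel), on each of the 5 arrays (horizontal axis) for the probes of Olr1, Cd14 and Stab2. Red bars are c-Maf KO and blue bars WT arrays, and open bars were not well above background; of the Stab2 probes, the brightest was filled on all 5 arrays, one on 2 and one on none.

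The class A receptors gave differences of opposite sign, and neither passed the test. Msr1, the macrophage receptor for acetylated low-density lipoprotein, had log2 ratios at 0.13, -0.10 and 0.15 for c-Maf KO replicates 1 to 3, against -0.05, -0.02 and 0.02 in WT replicates 1 to 3. The c-Maf KO samples lay on both sides of the WT samples. The difference was 0.08 (SE 0.083, 95% interval -0.13 to 0.28, limma adjusted p = 0.727), and the second Msr1 probe (chromosome 8, 40709296 to 40709355, minus strand, mm9) gave -0.01. The scaled signal of the brighter probe (40689158 to 40689217) was 4.58 and 5.51 in c-Maf KO replicates 2 and 3, against 4.80 to 4.95 in WT. Leaving out c-Maf KO replicate 2 gave 0.16 for Msr1, and leaving out c-Maf KO replicate 3 gave 0.03. Marco, a receptor of resident macrophages for bacteria and particles, had log2 ratios at -0.00063, -0.02 and -0.32 for c-Maf KO, against 0.24, 0.0049 and 0.00063 in WT. Its groups did not overlap, but c-Maf KO replicate 1 and WT replicate 3 were almost equal, and c-Maf KO replicate 3 and WT replicate 1 made most of the difference. That difference was -0.19 (SE 0.12, -0.48 to 0.09, limma adjusted p = 0.532) and leaving out c-Maf KO replicate 3 gave -0.09, and leaving out WT replicate 1 gave -0.12. Its scaled signal was 0.374 and 0.309 in c-Maf KO replicates 2 and 3, against 0.380 to 0.453 in WT.

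Cd36, the class B receptor for oxidized lipoprotein and long-chain fatty acids, had log2 ratios at 0.20, 0.14 and -0.03 for c-Maf KO replicates 1 to 3, against -0.09, 0.02 and -0.02 in WT replicates 1 to 3. The third c-Maf KO replicate was inside the range of WT, and the other c-Maf KO samples lay above it. The difference was 0.13 (SE 0.078, 95% interval -0.06 to 0.32, limma adjusted p = 0.531), and the scaled signal was 77.2 and 69.4 in c-Maf KO replicates 2 and 3, against 66.6 to 71.8 in WT. Leaving out c-Maf KO replicate 1 gave 0.09 for Cd36, leaving out c-Maf KO replicate 3 gave 0.20, and on the 5 arrays, where it was 0.08, leaving out c-Maf KO replicate 2 gave 0.0085 and leaving out c-Maf KO replicate 3 gave 0.16. Scarb1, which exchanges cholesterol with high-density lipoprotein, had 0.01, -0.01 and -0.01 for c-Maf KO, against 0.09, -0.11 and 0.01 in WT. Its WT samples enclosed the c-Maf KO samples, and the difference was 0.0012 (SE 0.069, -0.17 to 0.17, limma adjusted p = 0.997). The second Scarb1 probe gave 0.05 in the value table and 0.08 in the 5 arrays. Scarb2, an integral protein of the lysosomal membrane, had 0.17, 0.0076 and 0.02 for c-Maf KO, against -0.14, -0.0076 and -0.05 in WT. The groups did not overlap, and the difference of 0.13 (SE 0.074, -0.05 to 0.31, limma adjusted p = 0.507) was 0.08 in the 5 arrays, where the groups overlapped, and 0.08 in the value table without c-Maf KO replicate 1.

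The Scarb2 probe reads a stretch of transcript that spans 1334 bases of the genome (chromosome 5, 92877611 to 92878944, minus strand, mm9), so that its 60 bases lie across a splice junction. It is shown as an example of what the array measures, since a probe of this kind pairs with spliced RNA.
Scarb2 probe: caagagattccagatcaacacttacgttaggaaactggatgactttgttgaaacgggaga

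Scarf1, a receptor for acetylated lipoprotein and apoptotic cells, had log2 ratios at 0.25, 0.01 and -0.01 for c-Maf KO replicates 1 to 3, against 0.15, -0.12 and -0.05 in WT replicates 1 to 3. The groups overlapped, since replicate 1 was the highest of either genotype. The difference was 0.09 (SE 0.11, 95% interval -0.17 to 0.36, limma adjusted p = 0.746) in the value table and 0.0065 in the 5 arrays, where the scaled signal of this dim probe was 0.136 and 0.136 in c-Maf KO and 0.126 to 0.152 in WT. Leaving out c-Maf KO replicate 1 gave 0.0081 for Scarf1 in the value table, and leaving out WT replicate 1 gave 0.17. Cd68, the lysosomal glycoprotein used as a macrophage marker, had 0.12, -0.07 and -0.17 for c-Maf KO, against 0.04, 0.03 and -0.03 in WT. The c-Maf KO values spread to both sides of WT. The difference was -0.05 (SE 0.086, -0.26 to 0.16, limma adjusted p = 0.823), and -0.13 in the 5 arrays (SE 0.066, -0.31 to 0.04, limma adjusted p = 0.540), where the groups did not overlap. Its scaled signal was 251 and 238 in c-Maf KO replicates 2 and 3, against 258 to 274 in WT. The second Cd68 probe gave -0.01 and -0.08 in these sources.

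Over the set, no sample was the highest or the lowest throughout. c-Maf KO replicate 1 was the highest of the 6 samples for 4 of the 10 genes, where it was highest for 25.4% of all genes. It was the lowest for none, where it was lowest for 15.3% of all genes. WT replicate 1 was highest for 3, where it was highest for 13.5% of all genes. WT replicate 3 was neither highest nor lowest for any, where it was highest for 17.5% and lowest for 18% of all genes.

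Related genes were taken from lists of receptors and of partners in lipopolysaccharide recognition, lipid handling, cholesterol efflux, lysosomes and regulation, and no member of these lists passed limma's test at an adjusted p of 0.05 in either source. At an unadjusted p under 0.05 in the value table, 6 of 10 kept other scavenger receptors passed, as did 2 of 9 lipopolysaccharide recognition genes, 2 of 12 lipid uptake and storage genes, 1 of 8 cholesterol efflux genes, 0 of 11 lysosomal genes and 0 of 12 regulators, where the background was 12.6%. In the 5 arrays these numbers were 3, 2, 2, 1, 0 and 0, where it was 11.0%. The median differences of the lists in the value table were -0.014, -0.018, 0.067, 0.039, 0.011 and 0.026 in the same order. In that order, 3, 0, 1, 0, 0 and 1 genes lay higher in c-Maf KO without overlap, where the background was 11.1%. For those lower without overlap the numbers were 2, 2, 0, 1, 0 and 0, where it was 8.87%. The genes of these lists named below were mostly taken for the lowest unadjusted p of their list in the value table. Their small p-values and separate groups thus partly follow from that choice.

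Of 17 other scavenger receptors, Scara5, Cd163, Cd163l1, Ager, Ssc5d, Timd4 and Havcr1 were not kept, since each was well above background on at most 1 of 5 arrays. Among the 10 kept ones, Stab1, the relative of Stab2 found on alternatively activated macrophages, had log2 ratios at -0.18, -0.73 and -0.35 for c-Maf KO, against 0.18, 0.34 and 0.22 in WT. All c-Maf KO samples lay below all WT samples, and the difference was -0.66 (SE 0.15, limma unadjusted p = 0.0042, adjusted p = 0.211). Mrc1, the mannose receptor, had a difference of -0.24 (SE 0.085, limma adjusted p = 0.335) with groups that did not overlap. Clec7a, chosen after its values were seen, had 0.26 (SE 0.11, limma adjusted p = 0.394), and its groups overlapped. Scara3 and Scarf2 had differences of 1.10 (SE 0.26, limma adjusted p = 0.226) and 0.67 (SE 0.17, limma adjusted p = 0.239). Megf10, chosen after its values were seen, had 1.22 (SE 0.43, limma adjusted p = 0.338). Its processed intensity was only 9.45 and 10.0 in WT replicates 2 and 3. It was 28.0 in WT replicate 1 and 36.0 and 38.3 in c-Maf KO replicates 2 and 3. Scara3 was well above background on 4 of the 5 arrays and Megf10 on 3. On the 5 arrays the Scara3 difference was 1.17, and it was 0.40 with normexp background correction. In these 3 genes WT replicate 1 was the highest WT sample, with log2 ratios of -0.20 for Scara3, -0.13 for Scarf2 and -0.01 for Megf10.

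The stromal markers were also higher in c-Maf KO, with 7 of 8 at an unadjusted p under 0.05 in the value table and none past limma's adjusted test. The mean log2 ratio over 8 stromal genes (Col1a1, Col1a2, Col3a1, Dcn, Acta2, Tagln, Sparc and Pdgfrb), all 8 of them well above background on all 5 arrays, was 0.19, 0.19 and 0.48 in c-Maf KO replicates 1 to 3, against -0.06, -0.98 and -0.75 in WT replicates 1 to 3. The summed scaled signal was 239 to 264 in c-Maf KO and 106 to 183 in WT. WT replicate 1 was again the WT sample nearest to c-Maf KO, as it was for Olr1, and the part of stromal RNA in the differences of Olr1, Scara3, Scarf2, Megf10 and Vldlr was not tested. All 8 macrophage markers (Csf1r, Adgre1, Itgam, Mertk, Fcgr1, Lyz2, Aif1 and Cd68) were well above background on all 5 arrays, with a summed scaled signal of 1049 to 1085 in c-Maf KO and 1083 to 1184 in WT. Cd68 is also a member of the set described here, so these markers are not separate from it. Of the 8, 7 had a negative value table difference, where 50.6% of all genes had a positive one. An unadjusted p under 0.05 was found for 3, where the background was 12.6%, and none passed limma's adjusted test. Their mean log2 ratio was 0.01, -0.21 and -0.10 in c-Maf KO, against 0.02, 0.05 and -0.00021 in WT. Adgre1 (-0.22), Fcgr1 (-0.44) and Aif1 (-0.27) lay lower in c-Maf KO and Lyz2 (0.33) higher, with groups that did not overlap. The background was 8.87% for lower and 11.1% for higher without overlap, and these 4 were chosen after their values were seen. In Adgre1, Fcgr1 and Aif1 c-Maf KO replicate 2 was the lowest sample, as it was for Cd14 and Stab1, and the part of the macrophage markers in the differences of Cd14, Marco and Stab1 was not tested. The monocyte markers Ccr2 and Plac8 had groups that did not overlap, both higher in c-Maf KO, where the background was 11.1%. Neither of these 2 genes passed limma's adjusted test. Their mean log2 ratio was 0.44, 0.37 and 0.22 in c-Maf KO and -0.52, -0.61 and -0.22 in WT, and their part in the differences was not tested.

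**Figure D4:**
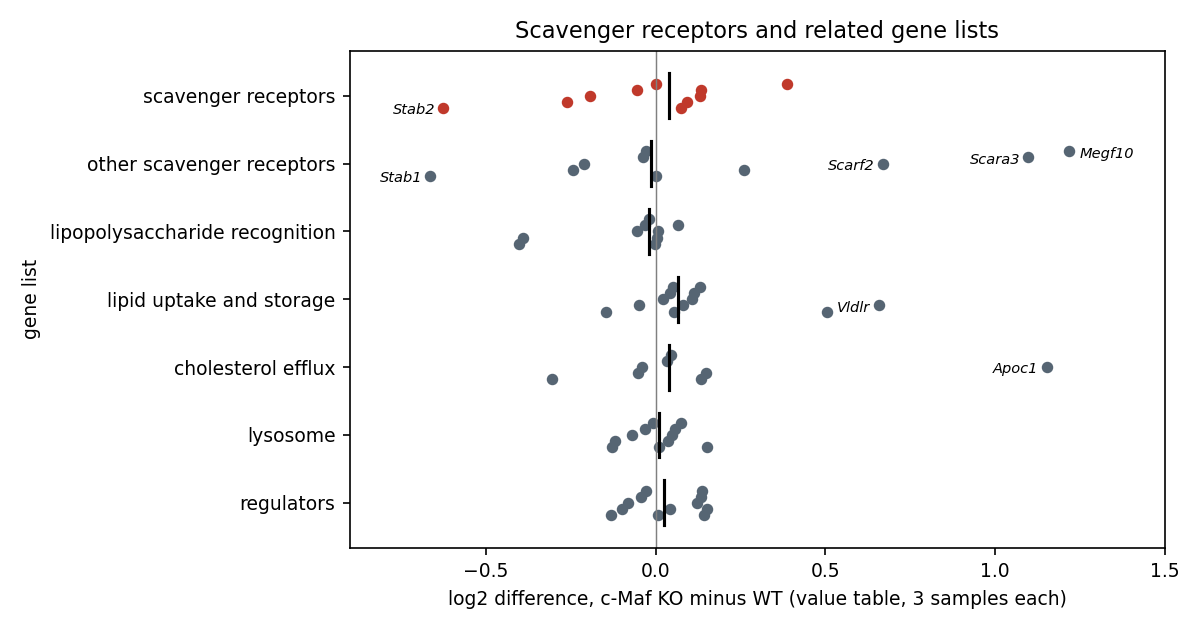
Log2 difference, c-Maf KO minus WT, in the value table (horizontal axis, 3 samples a group) for each kept gene of the scavenger receptor set (red) and of 6 related lists (grey), 1 row per list. Black bars are list medians, from -0.018 to 0.067, and genes past 0.55 in size are named; no gene shown passed limma's adjusted test.

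Among partners of Cd14, the subunits of the lipopolysaccharide receptor had differences close to 0. Tlr4 had 0.0037 (SE 0.054) and Ly96, which encodes MD-2, had -0.03 (SE 0.11). Both were chosen after their values were seen. Tlr1, which pairs with Toll-like receptor 2, had log2 ratios at -0.09, -0.44 and -0.10 for c-Maf KO, against 0.20, 0.09 and 0.24 in WT. The groups did not overlap, and the difference was -0.39 (SE 0.11, limma adjusted p = 0.272). The adaptor gene Ticam2 had -0.40 (SE 0.14, limma adjusted p = 0.348), and Tirap and Tlr6 had 0.06 and -0.05. The gene for the plasma protein Lbp was not well above background on any array.

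Genes of lipid handling beside Cd36 and Scarb1 were mostly close to 0. Fabp3, a fatty acid carrier, had log2 ratios at 0.51, 0.25 and 0.16 for c-Maf KO, against -0.24, -0.18 and -0.16 in WT. The groups did not overlap, and the difference was 0.50 (SE 0.10, limma adjusted p = 0.181). The lipoprotein receptor gene Vldlr had 0.66 (SE 0.23, limma adjusted p = 0.335), with WT replicate 1 at 0.04 and the other WT samples at -0.71 and -0.70. On the 5 arrays its difference was 0.77, and it was 0.15 with normexp background correction. Dgat1, an enzyme of triglyceride synthesis, had 0.11. Abca1, the exporter of cholesterol to apolipoprotein A-I, had -0.09, -0.28 and -0.19 for c-Maf KO, against 0.09, 0.13 and 0.14 in WT. The groups did not overlap, and the difference was -0.31 (SE 0.068, limma adjusted p = 0.211). Apoc1 had 1.15 (SE 0.64, limma adjusted p = 0.508), which came mainly from c-Maf KO replicate 3 at 2.36 and was 0.40 without it, while Npc1 and Pltp had 0.13 and 0.15.

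Of the 11 lysosomal genes that go with Scarb2 and Cd68, 6 had a positive and 5 a negative difference in the value table. Among the negative ones, Ctsb, Tfeb and Lamp1 had -0.12, -0.13 and -0.07. Of regulators of scavenger receptor genes, Nr1h3, which encodes the liver X receptor alpha, had 0.14 with groups that did not overlap, and Cebpa, Cebpb and Rxra had 0.14, 0.12 and -0.13.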

How the data were processed

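RNA of 3 c-Maf KO and 3 WT cultures was measured. The intensity values were extracted by the authors with Agilent Feature Extraction 10.7.3.1, per the file headers and the submitters' processing notes, together with other flags per spot for background, saturation and outliers that the authors deposited. Scanner files of 5 arrays were used. A scanner file of the first c-Maf KO replicate was not used here. The authors' value table holds a linear ratio: its log2 values, centred over the 5 arrays, lay within 0.0129 of the scaled scanner values for every kept probe, and the median of each probe over 6 samples was 0. It has 55821 probes, of which 140 are not among the non-control probes. The sources used here do not give how its low values were treated.

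Outlier spots (134 to 167 of 59305) were left out, processed intensities were scaled to the 75th percentile of their array (411 to 495), log2 was taken and spots of a probe were averaged. Kept probes, 28273 in number, were those flagged well above background on 2 or more arrays. On each array 27225 to 28140 of 55681 probes were well above background and no member probe was saturated. The number of arrays limits the precision. A gene was its brightest kept probe. Symbols came from the files, updated through RefSeq accessions (GRCm38.p6) for 28073 probes, and probe coordinates are those of the files (mm9). Differences, c-Maf KO minus WT, were tested with lmFit and eBayes of limma 3.58.1 in R 4.3.3 over all 20250 genes with Benjamini-Hochberg adjustment, on the 5 arrays and on log2 of the value table. The code was tested on simulated data.

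The rule for naming took all members, Maf, up to 4 genes of each list (lowest unadjusted p where none was called) and the 3 genes most like the member with the widest range. Some genes that the rule takes are not reported here. The members, lists and tests were chosen with earlier results of these data known. Row and genotype on the slide cannot be told apart, since c-Maf KO arrays lay in row 2 and WT arrays in row 1, and all lay on 1 slide with 1 scan. WT replicates 1 and 3 share a tag in their file names and were also averaged. Replicate numbers were not used as pairs, since the labels do not say that a number pairs samples. Deviations from the group mean correlated at -0.0601 to 0.0434 for same-numbered samples and at -0.0487 to 0.0763 for others. With 3 samples a group this cannot show whether pairs existed. Alternatives were normexp with offset 50, quantile normalization, the percentile over detected probes, other filters, the mean of a gene's probes, all kept probes tested, eBayes with trend and robust options, a replicate block, and each replicate left out.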

Additional observations from a re-analysis of the deposited data

How the results depend on the processing

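No scavenger receptor gene passed limma's adjusted test under any of 15 alternatives on the 5 arrays or 13 on the value table, while all-gene calls, 7 in each source, ranged from 0 to 80 on the 5 arrays and from 2 to 137 in the value table, highest with trend and robust options in both. With WT replicate 1 left out, 95 genes were called in the value table and 0 of them were members. With a replicate block, 0 members were called in both sources, and all-gene calls were 3 in the value table and 0 on the 5 arrays. On the 5 arrays the fit with a block also left out WT replicate 1. It gave 0.041 for Scarb1, as did leaving out WT replicate 1 without a block. Maf was no longer called in the block fit (limma adjusted p = 0.219). Nor was it called with WT replicate 1 left out and no block (0.0978), or with WT replicates 1 and 3 averaged (0.173). The number of members whose groups did not overlap was 2 with quantile normalization, where 19.3% of all genes had no overlap, and 4 to 6 with a replicate left out, where 28.1% to 38.3% had none.

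Of 280 member differences under alternatives, 265 kept their sign, and the 15 others were of Msr1, Scarb1, Scarf1 and Cd68. Many of the 265 could not change. The trend and robust options, the other filters and testing all kept probes left the members' differences as they were. So did the block in the value table, and the mean of probes for genes with a single kept probe. On the 5 arrays the block repeated the differences without WT replicate 1. On the 5 arrays, averaging a gene's probes gave -0.0015 for Msr1 and 0.038 for Scarb1, and Scarb1 had 4.98e-06 with the percentile over detected probes and 0.017 with WT replicates 1 and 3 averaged. Scarf1 had -0.056 with normexp and -0.025 with quantile normalization, which gave -0.0030 for Scarb1 in the value table. Leaving out 1 replicate gave -0.094 to 0.17 for Msr1, -0.058 to 0.041 for Scarb1 and -0.048 to 0.090 for Scarf1 on the 5 arrays. In the value table it gave -0.052 to 0.047 for Scarb1, -0.13 to 0.0095 for Cd68, -0.025 to 0.25 for Pltp and -0.0039 to 0.13 for Tirap. The causes were not tested. With normexp on the 5 arrays, Olr1 had 0.28, against 0.48 without it, Scara3 0.40, against 1.17, Vldlr 0.15, against 0.77, and Rxra -0.16, against -0.10.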
